A study of Saccharomyces cerevisiae with 4 samples.

Results

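Guanine.1 is the larger of the 2 groups into which the authors' clustering divided yeast cells that were grown with guanine. It holds 135 of the 844 cells of the series, and 135 of the 258 cells of the Guanine library, whose other 123 cells are called Guanine.2. Its cells were chosen by the subcluster label deposited for each cell, which the consensus clustering method SC3 gave when it was run on each library separately. The comparison group is DMSO.1, 177 of the 233 control cells, because most cells of both subclusters lie in 1 cluster when all libraries are clustered together with k = 4. That cluster holds 119 of the 135 Guanine.1 cells (88.1%, exact binomial 95% interval 81.5% to 93.1%) and 161 of the 177 DMSO.1 cells (91.0%, 85.7% to 94.7%).

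The series used yeastDrop-Seq, a droplet method in which each mRNA molecule of a single yeast cell is tagged with a unique molecular identifier (UMI), to ask how mycophenolic acid and guanine affect single-cell transcriptomes. There were 4 cultures of haploid budding yeast of the BY4741 background (MATa his3Δ1 leu2Δ0 met15Δ0 ura3Δ0, labelled WT), each grown for 18 h in CSM with 2% glucose. The Guanine culture received 10 µM guanine and, by the study's methods, no DMSO, and the DMSO culture received 10 µM DMSO alone. Each culture is 1 library, so the agent, the culture and the library cannot be told apart, cells are not replicates of a treatment, and no p-value can be given.

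The cells were grouped on the same UMI counts that are described here, so every gene's value took part in the choice of the cells, and all ratios are descriptions without a test. For each subcluster the UMIs of a gene in all its cells were added and scaled by the subcluster's total to counts per 1e+06 UMIs (CPM). Ratios are log2 of Guanine.1 CPM over DMSO.1 CPM. Intervals are exact 95% intervals (Poisson for a level, conditional binomial for a ratio) and cover counting error only.

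Guanine is a purine base that yeast imports with the permease Fcy2 and joins to a ribose phosphate to make GMP, which bypasses the synthesis of GMP through IMP dehydrogenase. Growing yeast spends a large part of its transcription on ribosomes and glycolysis, and it tunes smaller regulons to nutrients and damage. Among these regulons, Aft1 switches on iron uptake genes when iron is scarce, Gcn4 switches on amino acid biosynthesis, Hsf1 drives chaperone genes, Rpn4 drives proteasome genes and Yap1 drives genes of the oxidant and drug response.

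The labelled mating type was checked first. *MFA1*, which encodes the a-factor pheromone, had 185 UMIs in Guanine.1, the pheromone receptor gene *STE2* 15, the a-factor exporter gene *STE6* 9 and the agglutinin gene *AGA2* 3, while *BAR1*, *ASG7* and *MFA2* were listed at 0. *SAG1*, the only alpha-specific gene with values here, was listed at 0 in Guanine.1 and had 6 UMIs in DMSO.1. *HIS3*, of which his3Δ1 removes a part only, had 31 and 39 UMIs, and the other auxotrophy genes were not analysed here.

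Guanine.1 cells were shallow. They held a median of 673 UMIs (lowest 124, highest 1926) and 375 genes (94 to 814), and DMSO.1 cells held 1304 UMIs (406 to 2643) and 627 genes (274 to 1030). When every cell was thinned to 400 UMIs, the 108 Guanine.1 cells that had as many showed a median of 261.5 genes and the 177 DMSO.1 cells 274. At 200 UMIs the medians were 156 and 159, and at 600 UMIs they were 350 (81 cells) and 373 (165 cells). Guanine.1 thus lay below DMSO.1 at all 3 depths, by less than in the cells as deposited, and the part of depth in the gene ratios was not tested. The libraries summed to between 102788 and 311199 UMIs, with 96390 in Guanine.1 and 245226 in DMSO.1, and 0 of the 844 barcodes occurred in more than 1 library. A doublet caller marked 21 Guanine.1 cells (15.6%) and 19 DMSO.1 cells (10.7%). In 1 Guanine.1 cell, and in 0 DMSO.1 cells, 1 gene made up over 10% of all UMIs.

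On the deposited principal component scores, which have no unit, the medians of the subclusters differed too. The first component had a median of -7.21 over Guanine.1 cells (-10.3 to -1.44) and 0.19 over DMSO.1 cells (-8.74 to 14.0), so the ranges overlap. The second component had medians of -0.12 and -4.54.

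There were 1108 genes with at least 50 UMIs in both subclusters together, of which 9 were listed at 0 in Guanine.1. The other 1099 genes were compared, and they held 86.8% of the Guanine.1 UMIs and 84.1% of the DMSO.1 UMIs. Of these, 63 (5.73%) were at least 2-fold higher in Guanine.1 and 78 (7.10%) at least 2-fold lower, and the median log2 ratio over all 1099 was -0.03 (quartiles -0.45 and 0.33). Since these cells were chosen on the same counts, nothing is read from these shares. The counting interval excluded 0 for 63 of the 63 higher genes and for 77 of the 78 lower ones. With 50 UMIs or more and a 2-fold ratio, the call rule itself brings this about for most genes, so it adds no support. The members nearest the threshold had log2 ratios of 1.01 inside and 1.0 outside on the higher side, and of -1.0 on both sides at the lower. A gene can reach 50 UMIs because it is high in 1 of the subclusters: 28 of the 63 higher genes would have missed the minimum at their DMSO.1 level, and 55 of the 78 lower genes at their Guanine.1 level, so these had to differ to be compared at all. Without the cell that 1 gene dominated, 63 genes were higher and 74 lower. Summed over the members compared, the lists of iron uptake and amino acid synthesis lay above 0, as did *OYE2* (YHR179W) with *HBN1* (YCL026C-B) and *IDH1* (YNL037C) with *IDH2* (YOR136W). Heat shock and protein sorting genes, the proteasome, ribosome assembly factors and ergosterol enzymes lay below 0.

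**Figure D1:**
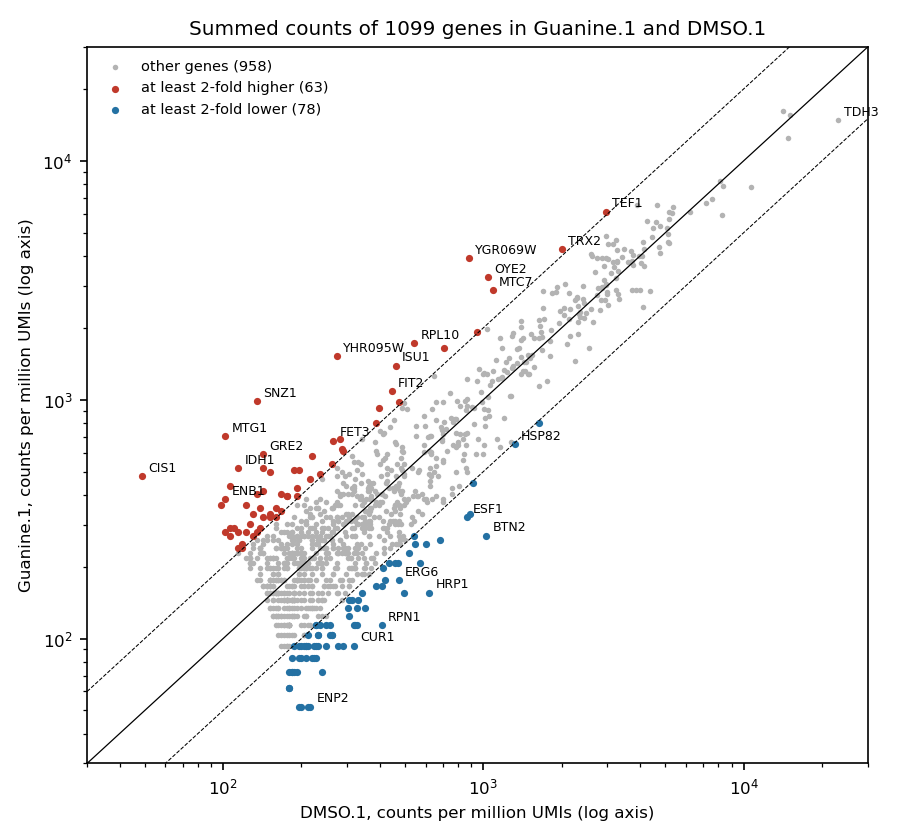
Summed CPM of each of 1099 genes in DMSO.1 (horizontal, log axis) and Guanine.1 (vertical, log axis), with the line of equality and dashed lines at 2-fold. The 63 higher genes are red and the 78 lower genes blue, for example *TEF1* at 2961 and 6131 CPM and *BTN2* at 1028 and 269.7 CPM.

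The ratio moved with the length of the gene. Over the 1076 genes with a known coding span (introns included), Spearman's rho between length and log2 ratio was -0.29, a description across genes that share the same libraries. The 269 shortest genes, of 78 to 585 nucleotides, had a median log2 ratio of 0.13, with 20 genes at least 2-fold higher and 3 lower. The 269 longest, of 1335 to 14733 nucleotides, had a median of -0.37, with 9 higher and 46 lower. The median span was 867 nucleotides for the higher genes, 1527 for the lower ones and 877.5 for all compared. Measured against the running median of the 101 genes nearest in length, 67 genes were at least 2-fold higher and 49 lower, so that the higher genes made up 57.8% of the called genes in place of 44.7%, with 49 higher and 46 lower genes in both sets. The part of length in any single ratio was not tested, and the ratio relative to genes of like length is given with each named gene past 2-fold that it brings under 2-fold.

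**Figure D2:**
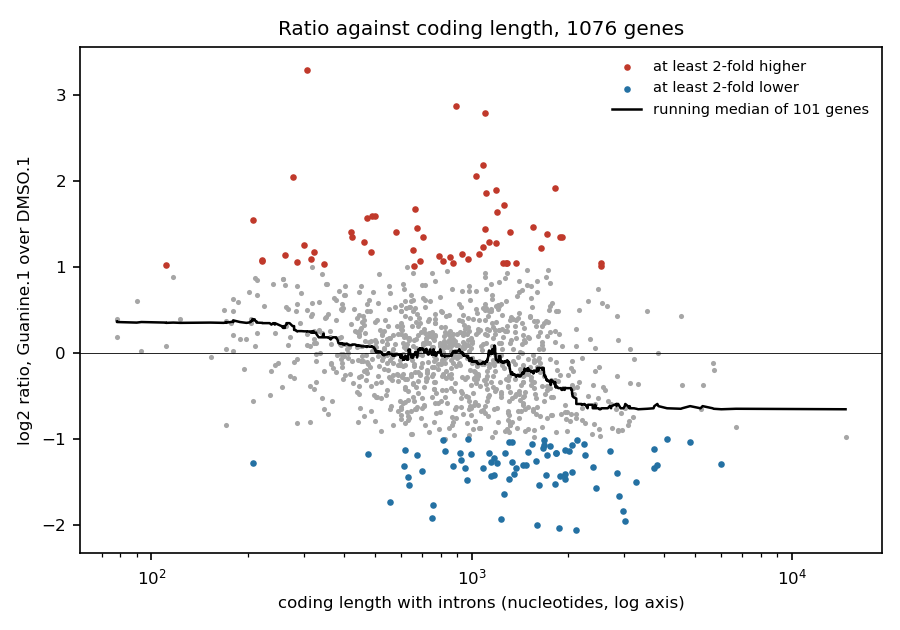
Log2 ratio of Guanine.1 over DMSO.1 against coding span in nucleotides (log axis) for 1076 genes, with red and blue points for genes at least 2-fold higher and lower and a line for the running median of 101 genes. The 269 longest genes have a median of -0.37 and hold 46 of the lower genes.

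Among lists with more than 2 genes compared, iron uptake had the largest share past 2-fold: 5 of the 7 members compared were at least 2-fold higher and 0 lower, with a median log2 ratio of 1.29 beside -0.03 for all genes. The shares of all genes compared were 5.73% higher and 7.10% lower. The list's summed level was 1892 CPM in DMSO.1 and 3631 CPM in Guanine.1, a log2 ratio of 0.94 (0.74 to 1.14). In the median Guanine.1 cell these genes held 0.284% of the UMIs, and in the median DMSO.1 cell 0.152%. *FIT2* (YOR382W), a mannoprotein that holds siderophores in the cell wall, was at 444 CPM in DMSO.1 and 1089 in Guanine.1 (109 and 105 UMIs), a log2 ratio of 1.29 (0.89 to 1.69). *FET3* (YMR058W), the multicopper ferroxidase of high-affinity iron uptake, was at 265 and 674 CPM (1.35, 0.83 to 1.87). *ENB1* (YOL158C), the enterobactin transporter, was at 102 and 384 CPM (1.91, 1.14 to 2.71). The intervals of each of these 3 genes lie above 0. Past 2-fold as well were the siderophore transporter gene *SIT1* (1.35) and *TIS11*, which encodes an mRNA-binding protein that triggers decay of transcripts for iron-using proteins (1.11); both were named after their values were seen. *ENB1* and *SIT1* would have missed the minimum at their DMSO.1 level, so both had to be higher to count among the 7 compared. *FTR1*, the permease that works in a complex with Fet3, was at -0.02 (-0.58 to 0.51) and the haem oxygenase gene *HMX1* at -0.30 (-1.04 to 0.40), so the permease did not stand higher with its ferroxidase. Other members were under the 50-UMI minimum. Of these, *FIT3*, a close relative of *FIT2*, had 37 UMIs in Guanine.1 and 11 in DMSO.1 (384 and 44.9 CPM). *ARN2*, a siderophore transporter gene, had 13 and 8, and its relative *ARN1* had 8 UMIs in Guanine.1 and was listed at 0 in DMSO.1.

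The core site of Aft1, GCACCC, lies in the promoter windows of 6 of the 7 iron uptake genes compared (85.7%), and of 255 of all 6020 promoters (4.24%). Windows run from 250 bases before to 50 after the gene start (RefSeq, build R64), both strands were searched, and this motif was added after the ratios were seen. The stretches of *FIT2* and *FET3*, of the compared iron genes, and of *FIT3* and *ATX1*, which stand outside that comparison, are shown as examples of where the core lies. They are written along each gene's own strand, with the site in capitals, as GCACCC or as its reverse complement. *ATX1*, which encodes a copper chaperone that serves the loading of Fet3 with copper, was named after its values were seen.
FIT2 (chrXV:1059281-1059340, plus strand): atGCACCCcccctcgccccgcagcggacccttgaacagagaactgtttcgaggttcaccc
FIT3 (chrXV:1061207-1061266, minus strand): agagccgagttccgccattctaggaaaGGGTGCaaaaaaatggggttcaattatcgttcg
FET3 (chrXIII:388572-388631, plus strand): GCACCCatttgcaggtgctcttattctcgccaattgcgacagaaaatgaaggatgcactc
ATX1 (chrXIV:157966-158025, minus strand): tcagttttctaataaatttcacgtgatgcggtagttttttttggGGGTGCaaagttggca
Among the 58 higher genes with a promoter window, 9 (15.5%) held this core, among the 78 lower genes 3 (3.85%), and among all compared genes 49 of 1076 (4.55%). In the windows of *ARN1* and *ARN2* no match was found upstream of the start. A match describes letters and not a bound site.

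*ISU1* (YPL135W), the scaffold on which mitochondria build iron-sulfur clusters, was at 461 CPM in DMSO.1 and 1390.2 in Guanine.1 (113 and 134 UMIs, 1.59, 1.22 to 1.97). Its paralogue *ISU2*, named after its values were seen, had 30 and 35 UMIs (1.57, 0.82 to 2.32). At its DMSO.1 level *ISU2* would have missed the UMI minimum, so it had to be higher to be compared. *ATX1* was at 289.5 and 612 CPM (1.08, 0.56 to 1.60; relative to genes of like length 0.73).

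Among redox enzymes a few genes were at least 2-fold higher. Of 10 genes of the OYE, FRM2 and AAD families, *OYE2* and *HBN1* passed the minimum. Both were at least 2-fold higher, as were 5.73% of all genes compared. The sum of *OYE2* and *HBN1* had a log2 ratio of 1.60 (1.38 to 1.82). *OYE2*, old yellow enzyme, an NADPH oxidoreductase that reduces unsaturated carbonyl compounds, was at 1044 CPM in DMSO.1 and 3258 CPM in Guanine.1 (1.64, 1.40 to 1.89). *HBN1*, a putative nitroreductase gene, was at 220.2 and 581 CPM (1.40, 0.83 to 1.97; 0.97 when each cell's CPM was averaged). *GRE2* (YOL151W), a methylglyoxal reductase, had 35 and 57 UMIs (2.05, 1.42 to 2.70), and *ADH6*, an NADPH-dependent alcohol dehydrogenase, was at 705 and 1649.5 CPM (1.23, 0.91 to 1.54). The drug exporter gene *FLR1*, named after its values were seen, was at 396 and 923 CPM (1.22, 0.79 to 1.65). The thioredoxin, peroxiredoxin and superoxide dismutase list stood less high as a whole, at 0.19 (0.12 to 0.25) for its sum (0.29 with all DMSO cells as the control) and 0.08 for its median. Beside the 5.73% of all genes compared, 2 of the list's 11 members were at least 2-fold higher, and 3 were below 0. The 2 higher members are given next. These were *TRX2* (YGR209C), a cytosolic thioredoxin, at 2006 and 4285 CPM (1.09, 0.90 to 1.29), and *GPX2*, a glutathione and thioredoxin peroxidase, at 135 and 405 CPM (1.59, 0.88 to 2.30). *AHP1*, the most abundant member at 15593 CPM in Guanine.1, had a log2 ratio of 0.04 (-0.05 to 0.13), and the lowest members were glutathione reductase *GLR1* (-0.20, -0.87 to 0.42) and peroxiredoxin *TSA1* (-0.14, -0.38 to 0.09). Relative to genes of like length *TRX2* was at 0.86. At their DMSO.1 level *GRE2* and *GPX2* would have missed the minimum, so they had to be higher to be compared. *YAP1* itself, the regulator of many of these genes, had 54 UMIs in DMSO.1 and 8 in Guanine.1 (-1.41, -2.69 to -0.33; relative to genes of like length -0.98) and was also named after its values were seen. At its Guanine.1 level *YAP1* would have missed the minimum, so it had to be lower to be compared.

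The Yap1 site TTACTAA lies in 451 of all promoters (7.49%), in 5 of the 58 higher genes (8.62%) and in 2 of the 78 lower genes (2.56%). In the windows of *OYE2*, *ADH6* and *FLR1* no match was found upstream of the start. *TRX2* and *HBN1* are among the genes that hold the site, and their stretches are shown with the site in capitals, as TTACTAA or its reverse complement.
TRX2 (chrVII:913412-913471, minus strand): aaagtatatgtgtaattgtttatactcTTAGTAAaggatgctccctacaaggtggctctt
HBN1 (chrIII:74177-74236, minus strand): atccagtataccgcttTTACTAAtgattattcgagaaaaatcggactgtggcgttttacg

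In central carbon metabolism, the isocitrate dehydrogenase genes stood above 0 and the sum over glycolysis below it. Of 11 tricarboxylic acid cycle genes 5 were compared, which hold 65.1% of the list's UMIs in DMSO.1, and their sum was at 1.08 (0.80 to 1.36). *IDH1* and *IDH2* encode the subunits of the mitochondrial NAD-dependent isocitrate dehydrogenase. *IDH1* had 28 UMIs in DMSO.1 and 50 in Guanine.1 (2.18, 1.49 to 2.91), and *IDH2* had 35 and 50 (1.86, 1.21 to 2.53). Both carry that sum, and both would have missed the 50-UMI minimum at their DMSO.1 level, so no weight is put on the list. With a minimum of 100 UMIs the peroxisomal citrate synthase gene *CIT2*, named after its value was seen, was the member left, at 0.66. The mitochondrial citrate synthase gene *CIT1* (0.35, -0.51 to 1.16) and the malate dehydrogenase gene *MDH1* (0.14, -0.81 to 1.02) had intervals that include 0. Genes for mitochondrial pyruvate entry were at 0.29 (0.12 to 0.45) in sum (0.031 with all DMSO cells as the control, 0.47 in thinned cells), led by *MPC2* of the pyruvate carrier (0.51, 0.28 to 0.75), and oxidative phosphorylation genes were at 0.17 (-0.02 to 0.35). In the latter list cytochrome bc1 subunit *QCR8* was the member past 2-fold (1.06, 0.27 to 1.84). *QCR8* was at 0.60 in thinned cells and 0.80 relative to genes of like length. It would have missed the 50-UMI minimum at its DMSO.1 level. ATP synthase subunit *ATP4* was the lowest of that list (-0.91, -1.61 to -0.27).

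Glycolysis and fermentation genes held 71734 CPM in DMSO.1 and 57132 CPM in Guanine.1, a log2 ratio of -0.33 (-0.37 to -0.28), with 0 of 16 members past 2-fold in either direction and a median of -0.12. Among all genes compared, 5.73% were at least 2-fold higher and 7.10% lower. The sum was carried by abundant genes. *TDH3* (YGR192C), glyceraldehyde-3-phosphate dehydrogenase, was at 23048 CPM in DMSO.1 and 14856 in Guanine.1 (-0.63, -0.72 to -0.55), and enolase *ENO2* was at 10643 and 7791 CPM (-0.45, -0.57 to -0.33). Both have a near-identical copy (*TDH2* and *ENO1*), so reads of the copies may have been shared among them. Phosphoglycerate mutase *GPM1* went the other way, at 0.60 (0.35 to 0.86), and alcohol dehydrogenase *ADH1* was at -0.11 (-0.24 to 0.02). With all DMSO cells as the control the sum of glycolysis and fermentation was at -0.21. For the 10 glycolysis genes alone the sum was at -0.34 (-0.39 to -0.28) and the median at 0.01, so these differ in sign. The acetaldehyde dehydrogenase gene *ALD6* was at -0.63 (-0.91 to -0.36) and its mitochondrial relative *ALD4* at -0.65 (-1.14 to -0.19). Hexose transporter genes were at 0.50 (0.18 to 0.80) for 3 members, from *HXT2* (0.05) to *HXT3* (0.88), and at 0.13 in thinned cells, and glycerol synthesis at 0.83 (0.56 to 1.09), of which *GPP1*, glycerol-phosphate phosphatase, was at 1036 and 1971 CPM (0.93, 0.65 to 1.21).

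Amino acid biosynthesis genes were modestly higher. Of 37 members compared, 27 had ratios above 0, 4 were at least 2-fold higher and 1 at least 2-fold lower, with a median of 0.28. Among all genes compared, 5.73% were at least 2-fold higher and 7.10% lower. The list's sum was 14077 CPM in DMSO.1 and 17263 CPM in Guanine.1 (0.29, 0.21 to 0.38), and its ratio was 0.0779 with all DMSO cells as the control. *ARG1* (YOL058W), argininosuccinate synthetase, was at 151 CPM in DMSO.1 and 498 in Guanine.1 (1.72, 1.07 to 2.38), and its ratio was 0.20 with all DMSO cells as the control. *LYS20* and *LYS21*, the homocitrate synthases that open lysine synthesis, were at 1.05 and 1.40; they are 95.3% identical, so their reads may have been divided between them, and *LYS20* was at 0.62 with all DMSO cells as the control and *LYS21* at 0.88 in thinned cells. *AAT2*, the cytosolic aspartate aminotransferase, was at 473 and 975 CPM (1.04, 0.64 to 1.45; 0.78 in thinned cells). *ASN1*, asparagine synthetase, lay lower at 518 and 228 CPM (-1.18, -1.91 to -0.52), and relative to genes of like length it was at -0.87. By pathway, the sums were at 1.04 (0.56 to 1.52) for arginine (2 genes, 0.12 with all DMSO cells as the control) and 0.93 (0.54 to 1.31) for lysine (3 genes). They were at 0.51 (0.08 to 0.94) for serine and glycine (2 genes) and 0.38 (0.20 to 0.56) for sulfur and methionine (7 genes, from *CYS3* at -0.01 to *MET14* at 0.80). Branched-chain synthesis (7 genes) was at 0.34 (0.16 to 0.52), which turned to -0.07 when all DMSO cells served as the control and was 0.014 in thinned cells. The branched-chain genes ran from the aminotransferase gene *BAT2* (-0.49) to the reductoisomerase gene *ILV5* (0.55). Threonine (3 genes, from *THR1* at -0.67 to *HOM2* at 0.93) was at 0.30 (0.03 to 0.56), aromatic (5 genes) at 0.27 (-0.03 to 0.56), histidine (1 gene) at 0.09 (-0.63 to 0.78), and glutamate, glutamine, asparagine and proline (7 genes) at -0.11 (-0.30 to 0.08). Amino acid permease genes were lower, at -0.69 (-1.01 to -0.38) for 5 members (-0.38 when each cell's CPM was averaged), with *BAP2*, a branched-chain amino acid permease, at -1.16 (-2.14 to -0.30) and *SAM3*, the S-adenosylmethionine permease, at -1.07 (-2.01 to -0.24). Relative to genes of like length *BAP2* and *SAM3* were at -0.78 and -0.76, and *SAM3* was at -0.50 when each cell's CPM was averaged. At their Guanine.1 level *BAP2* and *SAM3* would have missed the 50-UMI minimum, as would *LYS21* at its DMSO.1 level.

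*SNZ1* (YMR096W), a gene of vitamin B6 synthesis that is induced in late growth and in amino acid starvation, had the highest ratio among the genes with 100 UMIs or more. It had 33 UMIs in DMSO.1 (135 CPM) and 95 in Guanine.1 (986 CPM), a log2 ratio of 2.87 (2.29 to 3.49), which was 0.92 with all DMSO cells as the control. Its level in the other subclusters was higher still, at 1955 CPM in DMSO.2 and 4328 CPM in Guanine.2. *MTG1*, a mitochondrial GTPase gene whose end lies 122 nucleotides from that of *SNZ1* on the opposite strand, had 25 and 68 UMIs (2.79, 2.11 to 3.51), and whether reads of one were counted for the other cannot be told apart here. *CIS1*, a small gene with 12 and 46 UMIs, had the highest ratio of all genes compared (3.29, 2.35 to 4.34). *MTG1* and *CIS1* were named after their values were seen. At their DMSO.1 level *SNZ1*, *MTG1* and *CIS1* would have missed the UMI minimum, so they had to be higher to be compared and ranked. The Gcn4 site TGACTC lies in the windows of 15 of the 37 amino acid genes (40.5%) and of 479 of all promoters (7.96%), in 8 of the 58 higher genes (13.8%) and in 8 of the 78 lower genes (10.3%). It is in capitals, as TGACTC or its reverse complement, in the promoter stretches of *SNZ1* and *AAT2*.
SNZ1 (chrXIII:458202-458261, plus strand): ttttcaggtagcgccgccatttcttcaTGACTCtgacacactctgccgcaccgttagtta
AAT2 (chrXII:198196-198255, minus strand): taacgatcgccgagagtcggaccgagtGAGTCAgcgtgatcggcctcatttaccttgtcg

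In translation, ribosomal protein genes as a whole differed little while their assembly factors lay lower. The 130 cytosolic ribosomal protein genes compared had a median log2 ratio of 0.11, from -0.72 to 1.68, with 86 above 0. At least 2-fold higher were 3 and lower 0, beside 5.73% and 7.10% of all genes compared. Their sum was 351765 CPM in DMSO.1 and 379842 in Guanine.1 (0.11, 0.09 to 0.13). The member that stood out was *RPL10* (YLR075W), a large-subunit protein that is added late to the nascent subunit, at 542 CPM in DMSO.1 and 1733 in Guanine.1 (1.68, 1.34 to 2.02). *RPL7B* (1.46, 0.62 to 2.30) and *RPS22B* (1.04, 0.59 to 1.49) host small nucleolar RNAs in their introns, which overlap them on the same strand, so their counts are less certain, and *RPS22B* was at 0.62 in thinned cells. At the lower end were *RPL18B* (-0.72, -1.31 to -0.16) and *RPS20* (-0.56, -1.27 to 0.10).

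Elongation factor genes were higher, at 0.28 (0.19 to 0.36) for 8 members. *TEF1* (YPR080W), one of the genes for elongation factor 1-alpha, was at 2961 CPM in DMSO.1 and 6131 in Guanine.1 (1.05, 0.89 to 1.21). Its copy *TEF2* is 99.9% identical in the coding sequence, and *EFT1* and *EFT2*, the genes for elongation factor 2, are 99.8% identical (1.01 and 1.04), so each pair may share its reads. In thinned cells *TEF1* was at 0.92 and *EFT2* at 0.64. *EFB1*, the exchange factor for elongation factor 1-alpha, lay lower at 4367 and 2853 CPM (-0.61, -0.81 to -0.42). Initiation factor genes were at -0.33 (-0.45 to -0.21) in sum, but 7 of 16 lay above 0 and 9 below, with a median of -0.06. *RPG1*, a large subunit of initiation factor 3, was at 493 and 156 CPM (-1.66, -2.55 to -0.89), and *GCD2*, a subunit of the exchange factor eIF2B, at 571 and 207 CPM (-1.46, -2.22 to -0.78). *TIF2*, which encodes the helicase eIF4A as its paralogue *TIF1* does, was at 1.28 (0.82 in thinned cells), with *TIF1* at -0.04. Of 14 tRNA synthetase genes, *CDC60* for leucine (-1.50, -2.56 to -0.58) and *YDR341C* for arginine (-1.52, -2.57 to -0.60) were past 2-fold, and relative to genes of like length they were at -0.85 and -1.15. Among all genes compared, 7.10% were at least 2-fold lower. At their Guanine.1 level *CDC60* and *YDR341C* would have missed the UMI minimum, so they had to be lower to be compared. *EFT1* would have missed it at its DMSO.1 level. The synthetase list had a median of -0.28, or 0.08 relative to genes of like length.

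Of 50 ribosome assembly genes compared, 41 had ratios below 0 and 5 were at least 2-fold lower, with 0 at least 2-fold higher. The share at least 2-fold lower is thus close to the 7.10% of all genes compared. Their median was -0.40 (relative to genes of like length -0.21), and their sum was at -0.32 (-0.40 to -0.24), or -0.20 with all DMSO cells as the control. By stage, the small subunit processome (11 genes) was at -0.67 (-0.92 to -0.43), which was -0.29 in thinned cells, large-subunit assembly factors (31 genes) were at -0.34 (-0.45 to -0.23) and proteins of box C/D and H/ACA particles (8 genes) at -0.16 (-0.30 to -0.02). *ENP2*, a processome protein gene, had 53 UMIs in DMSO.1 and 5 in Guanine.1 (-2.06, -3.74 to -0.75), with a ratio of -0.87 in cells thinned to 400 UMIs. *ECM16*, a processome helicase gene, had 75 and 12 (-1.30, -2.31 to -0.41; relative to like length -0.71). *UTP14*, another processome gene, was at -1.14 (relative to like length -0.52) and was named after its values were seen. Outside the list, the nucleolar pre-rRNA processing factor gene *ESF1* (YDR365C) was at 865 and 322 CPM (-1.43, -2.02 to -0.88). The large-subunit factors *MAK16* (-1.16) and *CIC1* (-1.16) were lower too, at -0.94 and -0.95 with all DMSO cells as the control, and *RPF2* (0.51, -0.29 to 1.28) was not. At their Guanine.1 level *ENP2*, *ECM16*, *MAK16* and *CIC1* would have missed the 50-UMI minimum, so they had to be lower to be compared. The promoter elements PAC (GATGAG) and RRPE (AAAATTTT) are in 49 (98%) and 45 (90%) of the 50 windows, and in 1223 (20.3%) and 542 (9.0%) of all promoters. Among the 1076 compared genes with a window they are in 255 (23.7%) and 199 (18.5%). They are in 25 (32.1%) and 18 (23.1%) of the 78 lower genes, and in 14 (24.1%) and 5 (8.62%) of the 58 higher genes.

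Most protein folding genes lay below 0, and protein sorting genes lay lowest. Of 29 chaperone genes compared, 23 had ratios below 0, 3 were at least 2-fold lower (against 7.10% of all genes compared, a share close to theirs) and 0 higher, with a median of -0.41 (relative to genes of like length -0.23). Their sum was 20528 CPM in DMSO.1 and 14815 in Guanine.1 (-0.47, -0.56 to -0.39). *BTN2* (YGR142W), which sorts misfolded proteins into deposits, was at 1028 CPM in DMSO.1 and 269.7 in Guanine.1 (252 and 26 UMIs, -1.93, -2.57 to -1.34). Its paralogue *CUR1* (YPR158W) was at 318 and 93.4 CPM (-1.77, -2.95 to -0.77). With the disaggregase gene *HSP104* (-0.59, -1.64 to 0.35) and the small heat shock gene *HSP42* (-0.73, -1.68 to 0.13), whose intervals include 0, the sum of this group was at -1.49 (-1.90 to -1.10). All 8 genes of Hsp90 and its cochaperones had ratios below 0, with a sum at -0.76 (-0.90 to -0.61). *HSP82* (YPL240C), the inducible Hsp90, was at 1321 and 654 CPM (-1.02, -1.43 to -0.62; relative to like length -0.42, with all DMSO cells -0.89, in thinned cells -0.70), and its constitutive partner *HSC82* at 4123 and 2438 CPM (-0.76, -0.97 to -0.55). The cochaperone gene *SBA1* was at -0.94 (-1.35 to -0.55). In the Hsp70 system (-0.37, -0.56 to -0.18) the J-protein gene *SIS1* was at -0.87 (-1.42 to -0.35) and *SSA2*, a cytosolic Hsp70, at 0.08 (-0.24 to 0.40). Chaperones that work at the ribosome (-0.07, -0.22 to 0.09) and the TRiC chaperonin (0.02, -0.30 to 0.34) had sums whose intervals include 0. Within TRiC the median was 0.32, from *CCT4* (-0.52) to *CCT3* (0.37). The TRiC sum was 0.48 in thinned cells and -0.52 with a minimum of 100 UMIs, where fewer members are compared.

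The short heat shock element TTCNNGAA is in the windows of 14 of the 29 chaperone genes (48.3%) and of 772 of all promoters (12.8%). It was in 13 of the 78 lower genes (16.7%), 5 of the 58 higher genes (8.62%) and 156 of the 1076 compared (14.5%). In the window of *HSP104* no match was found upstream of the start. The stretches of *BTN2*, *HSP82* and *HSP42* are shown with the element in capitals.
BTN2 (chrVII:772364-772393, plus strand): atattttcttcTTCTTGAAagaaatatcag
HSP82 (chrXVI:98816-98875, minus strand): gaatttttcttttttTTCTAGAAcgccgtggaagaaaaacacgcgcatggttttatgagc
HSP42 (chrIV:806371-806430, plus strand): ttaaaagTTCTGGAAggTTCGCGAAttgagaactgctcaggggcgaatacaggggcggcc

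Of 33 genes of the proteasome list, 26 had ratios below 0, 2 were at least 2-fold lower and 0 higher, no larger a share than the 7.10% of all genes compared. The median was -0.40 (relative to genes of like length -0.20) beside -0.03 for all genes, and the sum was at -0.41 (-0.51 to -0.31). The members past 2-fold encode scaffold subunits of the regulatory particle. *RPN1* (YHR027C) was at 408 CPM in DMSO.1 and 114 in Guanine.1 (100 and 11 UMIs, -1.84, -2.89 to -0.94), and *RPN2* (YIL075C) at 681 and 259 CPM (-1.39, -2.06 to -0.78). Relative to genes of like length they were at -1.20 and -0.78. In cells thinned to 400 UMIs *RPN2* was at -0.52. At the upper end were the core subunit gene *PRE4* (0.49, -0.25 to 1.19) and the polyubiquitin gene *UBI4* (0.51, -0.29 to 1.28). The Rpn4 element GGTGGCAAA, also added after the ratios were seen, is in 27 of the 33 windows (81.8%) and in 72 of all promoters (1.2%). It is in 37 of the 1076 compared genes with a window (3.44%), 3 of the 78 lower genes (3.85%) and 1 of the 58 higher genes (1.72%). The element is in capitals here.
RPN1 (chrVIII:164823-164882, minus strand): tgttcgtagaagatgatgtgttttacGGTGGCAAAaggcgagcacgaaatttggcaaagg
RPN2 (chrIX:220801-220860, minus strand): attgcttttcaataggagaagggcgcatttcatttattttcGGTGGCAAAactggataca

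**Figure D3:**
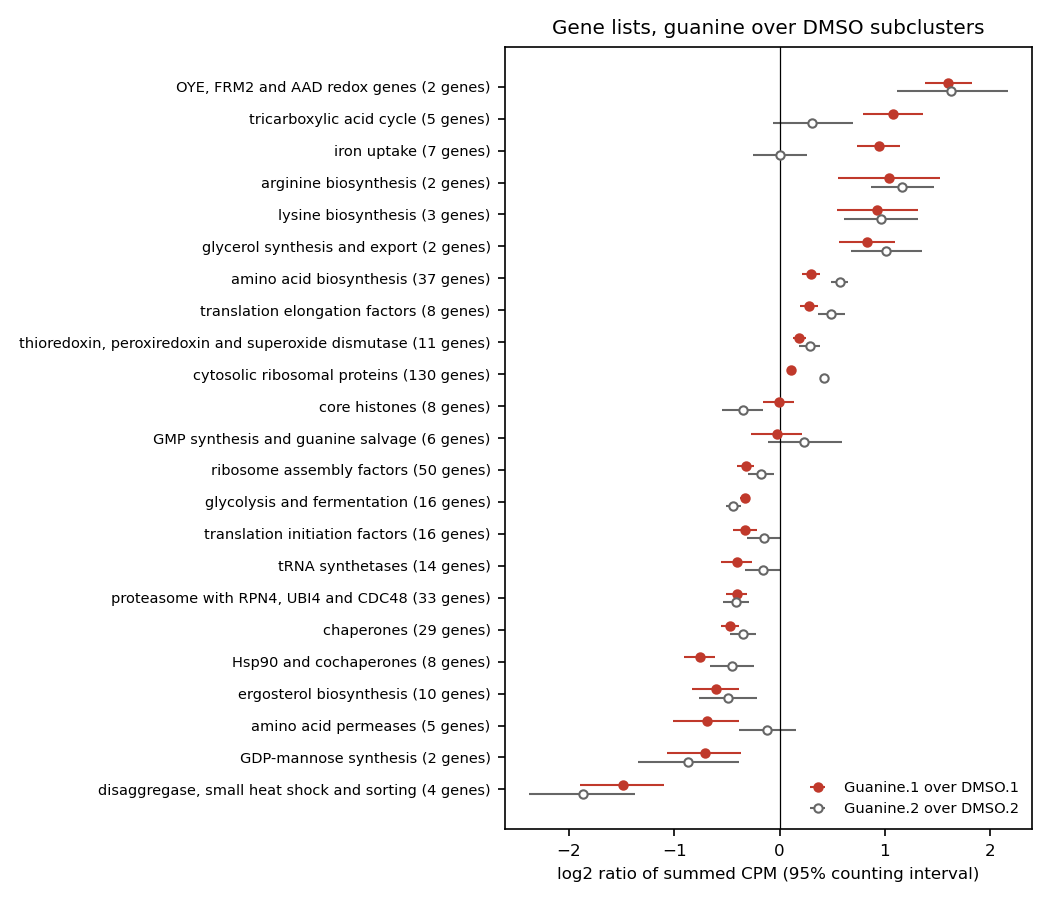
Log2 ratio of the summed CPM of 23 gene lists, each with the number of genes compared, for Guanine.1 over DMSO.1 (red) and Guanine.2 over DMSO.2 (open), with exact 95% counting intervals. For Guanine.1 the sums run from 1.60 for the OYE, FRM2 and AAD redox genes to -1.49 for the disaggregase, small heat shock and sorting genes.

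Membrane and wall genes were mixed. Of 10 ergosterol genes compared, 9 had ratios below 0 and 2 were at least 2-fold lower, beside 7.10% of all genes compared. The ergosterol sum was at -0.61 (-0.83 to -0.39). *ERG6* (YML008C), the sterol methyltransferase, was at 473 CPM in DMSO.1 and 176 in Guanine.1 (-1.42, -2.25 to -0.68), and *ERG11*, the demethylase that azole drugs inhibit, at 420.02 and 176 CPM (-1.25, -2.09 to -0.50; -0.99 in thinned cells). Squalene epoxidase *ERG1* was at 0.79 (-0.09 to 1.63). GDP-mannose synthesis was at -0.71 (-1.06 to -0.37), with *SEC53*, phosphomannomutase, at -0.80 (-1.42 to -0.22) and *PSA1*, the pyrophosphorylase, at -0.66 (-1.10 to -0.23). Cell wall genes were at -0.23 (-0.31 to -0.14), or -0.058 in thinned cells, from the mannoprotein gene *TIP1* (-0.73, -1.35 to -0.16) to *CCW14* (0.62, -0.06 to 1.28). The intervals of 2 lipid lists include 0, with phospholipid synthesis at -0.14 (-0.33 to 0.05) and fatty acid synthesis at -0.07 (-0.38 to 0.24). In fatty acid synthesis *ACC1*, acetyl-CoA carboxylase, was at -0.86 (-1.53 to -0.24) and the desaturase gene *OLE1* at 0.78 (0.05 to 1.49). Phosphate uptake genes were at 0.32 (0.15 to 0.48) and at 0.0090 in thinned cells, with *PHO89*, a sodium-phosphate cotransporter, at 196 and 508 CPM (1.38, 0.77 to 1.98; 0.92 without called doublets) and the acid phosphatase gene *PHO5* at -0.76 (-1.92 to 0.26).

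The genes of guanine use that could be compared were not among those past 2-fold. Of 14 genes for GMP synthesis and guanine salvage, 6 passed the minimum, 0 were past 2-fold, and their sum was at 2100.1 CPM in DMSO.1 and 2065 in Guanine.1 (-0.02, -0.27 to 0.21). Among all genes compared, 5.73% were at least 2-fold higher and 7.10% lower. *FCY2* (YER056C), the purine-cytosine permease, was at 0.71 (-0.04 to 1.44), and *GUA1*, GMP synthetase, at -0.47 (-1.29 to 0.28). *GUK1*, guanylate kinase, was at -0.32 (-0.90 to 0.24), *ADK1*, adenylate kinase, at 0.36 (-0.08 to 0.79), and *APT1*, adenine phosphoribosyltransferase, at -0.05 (-0.71 to 0.57). The IMP dehydrogenase gene *IMD4* was at -0.69 (-1.50 to 0.05), and it hosts a small nucleolar RNA. All 6 intervals include 0. Those of *GUK1*, *ADK1* and *APT1* also leave out a 2-fold difference in either direction, and those of *FCY2*, *GUA1* and *IMD4* do not. *HPT1*, whose enzyme makes GMP from guanine, was under the minimum with 29 UMIs in DMSO.1 and 11 in Guanine.1. *IMD3* had 34 UMIs in DMSO.1 and was listed at 0 in Guanine.1, and *IMD2* was listed at 0 in both. *ADE8* was the only de novo purine gene compared (0.68, -0.16 to 1.49). One-carbon genes were at 0.47 (-0.06 to 0.99) and pyrimidine synthesis genes at 0.31 (0.11 to 0.50), the latter led by CTP synthase *URA8* (0.96, 0.61 to 1.31; relative to genes of like length 1.29).

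For the cell cycle, the core histone genes were at -0.01 (-0.16 to 0.14) in sum (0.21 without called doublets), with 4 of 8 above 0 and members from the H4 gene *HHF2* (-0.80, -1.29 to -0.34) to the H2A gene *HTA1* (0.67, 0.11 to 1.22), and no G1/S or G2/M gene of the lists passed the minimum. The daughter-cell genes *CTS1*, chitinase (48 and 9 UMIs, -1.07, -2.28 to -0.02), and *DSE2* (56 and 11 UMIs, -1.0, -2.08 to -0.05) were at least 2-fold lower. Of the 11 genes of their list 2 were compared, and among all genes compared 7.10% were at least 2-fold lower. At their Guanine.1 level *CTS1* and *DSE2* would have missed the minimum, so they had to be lower to be compared. Relative to genes of like length they were at -0.81 and -0.94, *DSE2* was at -0.63 when each cell's CPM was averaged, and *CTS1* turned to 0.20 in cells thinned to 400 UMIs. *MFA1* was higher, at 946 and 1919 CPM (1.02, 0.73 to 1.31; relative to like length 0.67). *HIS3* was at 1.02 (0.29 to 1.73), at 0.38 with all DMSO cells as the control and at 0.13 in thinned cells. Of the general stress genes, *GRE2* (above) and *HOR7* (0.21, 0.02 to 0.39) passed the minimum.

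Outside the lists, the lowest ratio among genes with at least 100 UMIs belonged to *HRP1* (YOL123W), a subunit of the mRNA cleavage factor, at 619.8 CPM in DMSO.1 and 156 in Guanine.1 (152 and 15 UMIs, -1.99, -2.87 to -1.23). At its Guanine.1 level *HRP1* would have missed this 100-UMI minimum, so it had to be lower to be ranked. *FPR4*, a nuclear prolyl isomerase, was at 885 and 332 CPM (-1.41, -2.00 to -0.87), and *SVF1*, a gene needed for survival of oxidative stress, at 408 and 166 CPM (-1.30, -2.16 to -0.53). *YHB1*, the flavohaemoglobin that detoxifies nitric oxide, was at 604 and 249 CPM (-1.28, -1.96 to -0.65; -0.73 in thinned cells), and the end of *MIC26* (-1.37) lies 256 nucleotides from its own on the opposite strand. *YBR191W-A* was at 281 and 685 CPM (1.28, 0.77 to 1.79; 0.85 in thinned cells). In all, 27 of the 63 higher genes and 22 of the 78 lower genes belong to a list. The share of all compared genes that belong to a list is not given here. The lists were also chosen with earlier results of these data known, so nothing is read from these counts.

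For 3 of the higher genes, 1 cell held over 25% of the Guanine.1 UMIs. *MTC7* had 277 UMIs in Guanine.1, of which 186 came from 1 cell, and its log2 ratio was 1.41 (1.16 to 1.65) with that cell and -0.19 without it. *YGR069W* had 378 UMIs with 163 in 1 cell, and *YHR095W* had 147 with 105 in 1 cell. The ratio of *YGR069W* was 2.15 (1.91 to 2.40), and 1.35 without the cell that *MTC7* dominated. That of *YHR095W* was 2.48 (2.05 to 2.92), and 0.68 without that cell. With all DMSO cells as the control, *MTC7* was at 0.75, *YGR069W* at 0.67 and *YHR095W* at -0.80. Neither *YGR069W* nor *YHR095W* has a standard gene name.

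Some genes could not be given a ratio. Those with the most DMSO.1 UMIs that were listed at 0 in Guanine.1 were the transcription elongation factor gene *SPN1* (68 UMIs), the plasma membrane proton pump gene *PMA1* (66), *HRI1* (59), the protein phosphatase gene *PTC3* (57) and the retrotransposon gene *YLR227W-B* (52), and they were listed at 0 in Guanine.2 too. Those listed at 0 in both DMSO subclusters were *YCR013C* (26 UMIs in Guanine.1), *YIP3* (25), *DIA1* (21), *TIM8* (20) and *PPN2* (19). In each library every gene with any UMI has a cell with at least 2, so a gene at 0 may have been removed by a filter on that library, and no fold is given.

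The other guanine subcluster allows the same values to be set beside each other. Guanine.2 (123 cells, 120378 UMIs) and DMSO.2 (56 cells, 65973 UMIs) come from the same 2 libraries, 7 DMSO.2 cells were dominated by 1 gene, and the difference between the pairs of subclusters was not tested. For iron uptake the sums were 2956 CPM in DMSO.2 and 2957 in Guanine.2 (0.00, -0.26 to 0.26), beside 1892 and 3631 in DMSO.1 and Guanine.1. *FIT2* was at 439.6 and 440.3 CPM, *ENB1* at 258 and 216, and *FET3* at 455 and 573. For the tricarboxylic acid cycle the second pair was at 0.31 (-0.06 to 0.69), with *IDH1* at 167 and 249 CPM and *IDH2* at 152 and 141. Amino acid biosynthesis stood at 24828 and 36867 CPM, so both subclusters of the second pair lay above Guanine.1. *ARG1* was at 1485 and 3597 CPM there.

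Other members can be read the same way, with values in DMSO.2 and then Guanine.2. *OYE2* was at 455 and 1578 CPM (1.80, 1.23 to 2.40), *RPL10* at 561 and 1769 (1.66, 1.15 to 2.20) and *TEF1* at 2759 and 5557 (1.01, 0.77 to 1.25). *BTN2* was at 728 and 158 CPM (-2.20, -3.05 to -1.41), *HRP1* at 819 and 291 (-1.49, -2.15 to -0.85) and *RPN2* at 743 and 249 (-1.58, -2.28 to -0.89). Chaperones were at -0.34 (-0.47 to -0.22) and the proteasome at -0.41 (-0.54 to -0.29). The ribosomal protein sum was at 0.42 (0.40 to 0.45) in the second pair beside 0.11 in the first, and amino acid permeases at -0.12 (-0.39 to 0.15) beside -0.69.

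**Figure D4:**
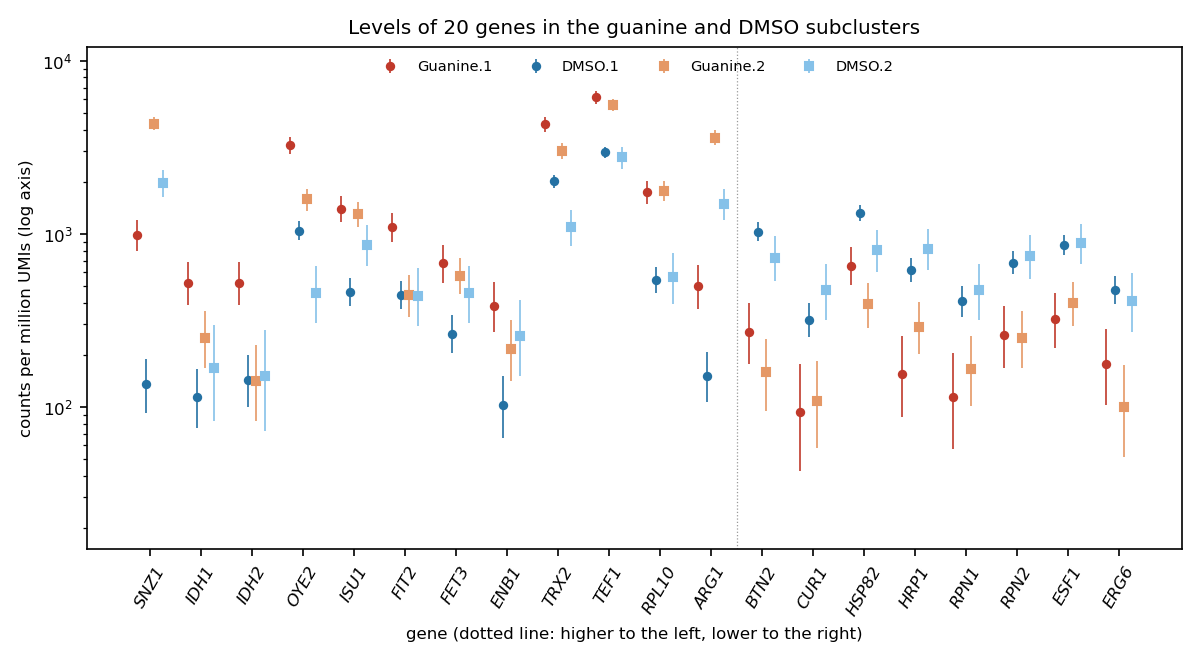
CPM (log axis) of 20 genes in Guanine.1, DMSO.1, Guanine.2 and DMSO.2, with exact 95% Poisson intervals. In the first 12 genes Guanine.1 lies above DMSO.1 and in the last 8 below it, for example *SNZ1* at 986 against 135 and *BTN2* at 269.7 against 1028.

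Within Guanine.1 the cells varied widely around these sums. The share of a cell's UMIs in ribosomal protein genes had a median of 38.4% (quartiles 33.3% to 43.1%), from 3.72% to 55.5%, and in DMSO.1 a median of 36.2% (quartiles 30.9% to 39.5%). For glycolysis and fermentation the medians were 5.35% (quartiles 4.10% to 7.02%) and 6.98% (5.94% to 8.13%). For chaperones they were 1.33% (0.975% to 1.78%) and 2.02% (1.52% to 2.59%). The quartile ranges of the subclusters thus overlap in each of these lists. The 119 Guanine.1 cells of cluster 1 in the joint clustering had a median ribosomal protein share of 39.1%, and the other 16 cells 28.0%. For amino acid biosynthesis these medians were 1.60% and 2.11%, and for chaperones 1.35% and 1.07%.

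**Figure D5:**
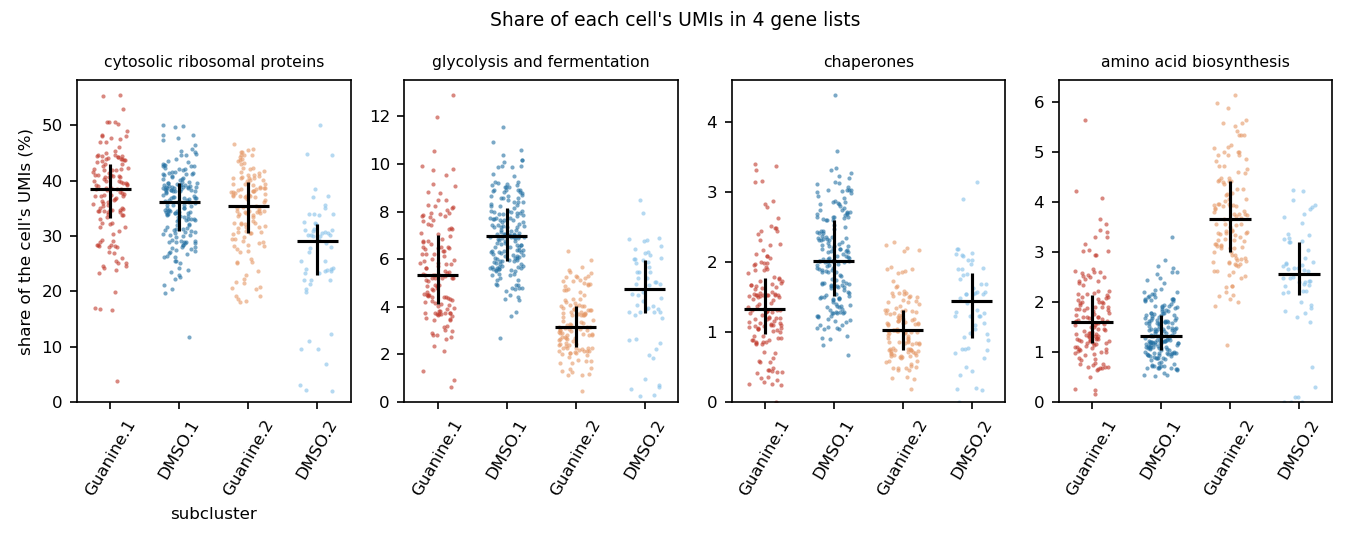
Share of each cell's UMIs (%) in 4 gene lists, with 1 point per cell, a bar at the median and a line over the quartiles, for Guanine.1, DMSO.1, Guanine.2 and DMSO.2. The median chaperone share is 1.33% in Guanine.1 and 2.02% in DMSO.1, and the clouds of cells overlap.

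In thinned cells, the variation from cell to cell in single genes was mostly near that of counting. At 400 UMIs per cell, the variance of a gene's UMIs over cells divided by its mean, which is 1 for pure counting, had a median of 1.09 over 318 genes in Guanine.1 and 1.07 in DMSO.1. The minimum mean for a gene was 0.2 UMIs. Thinning to such low counts brings this ratio toward 1, so a value near 1 does not show that cells vary little. After *MTC7*, *YGR069W*, *YHR095W* and *YNL143C* the highest values in Guanine.1 were those of the histone gene *HTA2* (3.84, and 1.89 in DMSO.1), the stress gene *HOR7* (2.70 and 2.47), the histone gene *HHT2* (2.54 and 1.47), *OSI1* (2.48 and 1.53) and *TRX2* (2.48 and 1.37). *SNZ1* was at 1.89 and 1.49. These genes were named here after their values were seen.

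The 10 most abundant transcripts of Guanine.1 came mostly from ribosomal protein, glycolysis and cell wall genes. They were *RPL41A* (16132 CPM), the peroxiredoxin gene *AHP1* (15593), *TDH3* (14856), the cell wall protein gene *CCW12* (12459.8), *RPL29* (8258), *RPS31* (7833), *ENO2* (7791), the aldolase gene *FBA1* (6909), *ADH1* (6660.4) and the uncharacterized gene *YNL143C* (6557). Levels are shares of UMIs, with no correction for length. Of these, *CCW12* (-0.25), *TDH3* (-0.63) and *ENO2* (-0.45) had ratios whose intervals lie below 0, and *RPL41A* (0.19) and *YNL143C* (0.50) ratios whose intervals lie above 0.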

How the data were processed

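Processed files of 4 libraries (DMSO, Guanine, MPA, and MPA with guanine) were used. The deposited matrix holds UMI counts per gene and cell, not normalized, which the authors made by trimming with Trimmomatic, alignment with STAR to build R64-1-1, counting with UMI-tools and cell filtering with scater. Whether counting used strand is not given in the sources used here. The authors also deposited a cell table with SC3 cluster labels and Seurat principal component scores, which carry no unit. The number of per-sample columns not mapped to a sample was 0.

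Summed UMIs of each subcluster were scaled to CPM (Python 3.11.15, numpy 2.4.6, scipy 1.17.1, pandas 2.3.3). Genes with at least 50 UMIs in both subclusters together and UMIs in each were compared, with a call at 2-fold. With 1 library per condition no test was made, and the 844 cells were used as deposited. Scrublet (scanpy 1.11.5, 30 components, expected rate 0.05) marked doublets, which were left in, and thinning used 400 UMIs with seed 1. The scripts were tested on simulated data. Gene names and coordinates came from RefSeq (R64), which matched 4612 of 4777 gene IDs, and near-identical copies from blastn 2.17.0+.

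The members, the gene lists and the rule for names were chosen with earlier results of these data known. The rule took the 12 highest and 12 lowest ratios among genes with at least 100 UMIs, the guanine genes compared, the 2 highest and 2 lowest of each list (of which the text gives a part), the 5 genes per side listed at 0 with the most UMIs, the 10 most abundant genes and the genes of the label check. Genes outside it (*ARN1*, *ARN2*, *ATX1*, *CIS1*, *CIT2*, *EFT1*, *FIT3*, *FLR1*, *HHT2*, *HPT1*, *HSC82*, *HTA2*, *IMD2*, *IMD3*, *ISU2*, *MIC26*, *MTG1*, *OSI1*, *SIT1*, *TIF1*, *TIS11*, *UTP14* and *YAP1*) were named after their values were seen.

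Alternatives were TMM scaling (edgeR 4.0.16 in R 4.3.3), totals that leave out ribosomal protein genes, CPM averaged over cells, thinned cells, other UMI minimums of 20 and 100, other sets of cells and, added after the data were seen, ratios relative to genes of like length and the removal of cells in which 1 gene held over 10% of the UMIs.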

Additional observations from a re-analysis of the deposited data

How the results depend on the processing

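No paired analysis was possible because each condition has 1 library. The 63 higher and 78 lower genes became 157 and 198 with a minimum of 20 UMIs and 22 and 23 with a minimum of 100, settings that change only how many genes are compared. In cells thinned to 400 UMIs, which also drops cells, they became 15 and 17 of 355 genes, of which 12 and 7 were past 2-fold before. Relative to genes of like length, 49 genes were lower. The ribosomal protein sum moved from 0.11 on the log2 scale to 0.18 with totals that leave out these genes, 0.0737 with the mean of each cell's CPM, 0.13 without doublets and 0.19 with all DMSO cells as the control. With all DMSO cells, chaperones moved from -0.47 to -0.37, glycolysis and fermentation from -0.33 to -0.21 and amino acid biosynthesis from 0.29 to 0.0779. Glycolysis and fermentation were at -0.26 with totals without ribosomal proteins and -0.28 in thinned cells, and amino acid biosynthesis was at 0.20 in thinned cells. Signs turned for branched-chain synthesis (0.34 to -0.0747) and *YHR095W* (2.48 to -0.80) with all DMSO cells. They also turned for *MTC7* (1.41 to -0.23 in cluster 1 cells and -0.19 without the dominated cell) and *CTS1* (-1.07 to 0.20 in thinned cells). The cause of these moves was not tested. Under every alternative that gave a value, 23 of the 56 named genes past 2-fold stayed past it, among them *FIT2*, *FET3*, *ENB1*, *ISU1*, *OYE2*, *GRE2*, *IDH1*, *IDH2*, *RPL10*, *BTN2*, *CUR1*, *HRP1*, *RPN1* and *ERG6*. Of the genes listed here, *ENB1*, *GRE2*, *IDH1*, *IDH2*, *CUR1* and *RPN1* reached the 50-UMI minimum only through the subcluster in which they are higher. Leaving out a replicate was not possible. Depth limits genes under 50 UMIs, which include most of the guanine salvage, cell cycle and siderophore genes of the lists.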
